A study of Mus musculus with 2 samples.

Results

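The 8 genes described here encode the amino acid carriers that define reabsorption in the proximal tubule of the kidney: Slc6a19, Slc6a18, Slc3a1, Slc7a9, Slc7a7, Slc3a2, Slc1a1 and Slc7a8. They were chosen by name, out of 21938 protein-coding genes of the GENCODE M21 annotation on mm10, and all 8 were found there. For each gene the gene body and 20 kb on either side were examined for DNase I peaks, footprints and intervals of significant cutting. Peaks at the 5′ end of the gene record were kept apart from peaks at transcript starts inside the gene.

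The data came from kidney tissue of females of the hybrid strain B6CASTF1/J (C57BL/6J crossed with CAST/EiJ) at 36 days of age. There was 1 group with 2 libraries, labelled biological replicates 1 and 2, and no treatment, second tissue or control. The females are numbered separately in the labels but both carry the same donor entry, so their independence is known only from those numbers. DNase-seq maps open chromatin: DNase I cuts DNA that is not wrapped in nucleosomes, and a footprint is a short protected stretch inside such a site. The labels name kidney tissue and no single cell type. A low peak in few open cells and a low peak in many partly open cells therefore cannot be told apart.

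Proximal tubule cells take amino acids from the filtrate across their apical brush border and release them across the basolateral membrane into the blood. At the apical side, Slc6a19 carries most neutral amino acids with sodium, Slc6a18 carries glycine and other small neutral amino acids, Slc1a1 carries glutamate and aspartate, and the pair of Slc3a1 (heavy chain) and Slc7a9 (light chain) takes up cystine and dibasic amino acids in exchange for neutral ones. At the basolateral side, Slc3a2, the heavy chain known as CD98, pairs with the light chains Slc7a7, which exports dibasic amino acids, and Slc7a8, which exchanges neutral ones. In humans, loss of SLC6A19 causes Hartnup disease, loss of SLC3A1 or SLC7A9 cystinuria, loss of SLC7A7 lysinuric protein intolerance and loss of SLC1A1 dicarboxylic aminoaciduria.

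Replicate 1 held 124504 peaks and replicate 2 held 68056. Peaks of both libraries that overlapped by at least 1 base merged into 65134 shared regions. Median peak heights were 1.33 in replicate 1 and 1.46 in replicate 2. The height is the authors' own signal value and its scale is not stated, so it is used to rank sites within a library. Between the libraries it is read only as a ratio, beside the same ratio over all shared regions. Kidney identity was checked at the 5′ ends of 11 marker genes: 8 had a peak in both libraries, including Lrp2 (7.46 and 5.11 in replicates 1 and 2) of the proximal tubule, while the podocyte gene Nphs1 had one in replicate 1 alone and the phosphate carrier Slc34a1 had none. None of 6 marker genes of liver, adrenal, muscle, leukocytes and red cells had a peak in either library.

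Open chromatin was dense around the amino acid carriers. The 8 windows merged into 7 stretches of 580 kb in all, because those of Slc6a18 and Slc6a19 overlap, and held 70 shared regions. This was 12.1 regions per 100 kb, against 2.39 per 100 kb over the genome. Per window the members had a median of 9.50 regions and 13.9 per 100 kb, against medians of 3 regions and 4.50 per 100 kb over the windows of all protein-coding genes. Slc6a19 stood highest with 15 regions, 23.0 per 100 kb, a rate above that of 98.4% of genes. Slc3a2 had 10 regions (17.7 per 100 kb), Slc6a18 had 9 (16.0), Slc7a7 had 13 (14.7) and Slc7a8 had 13 (13.0), rates above those of 95.0%, 92.8%, 91.1% and 87.6% of genes. Slc7a9 with 5 regions (8.73 per 100 kb), Slc1a1 with 8 (6.73) and Slc3a1 with 5 (6.59) lay nearer the middle, above 73.6%, 64.1% and 63.3% of genes. Slc6a18 and Slc6a19 lie in tandem and share 8 of these regions, so their counts are not independent. Regions at the starts of neighbouring genes are included: when a region was counted only for the nearest gene start, 51 of the 70 remained with the members. Slc6a19 then kept 6 of its 15 and Slc7a7 5 of its 13, the largest losses. Slc3a1 and Slc7a9 kept all 5. Gene bodies without flanks held 43.

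**Figure D1:**
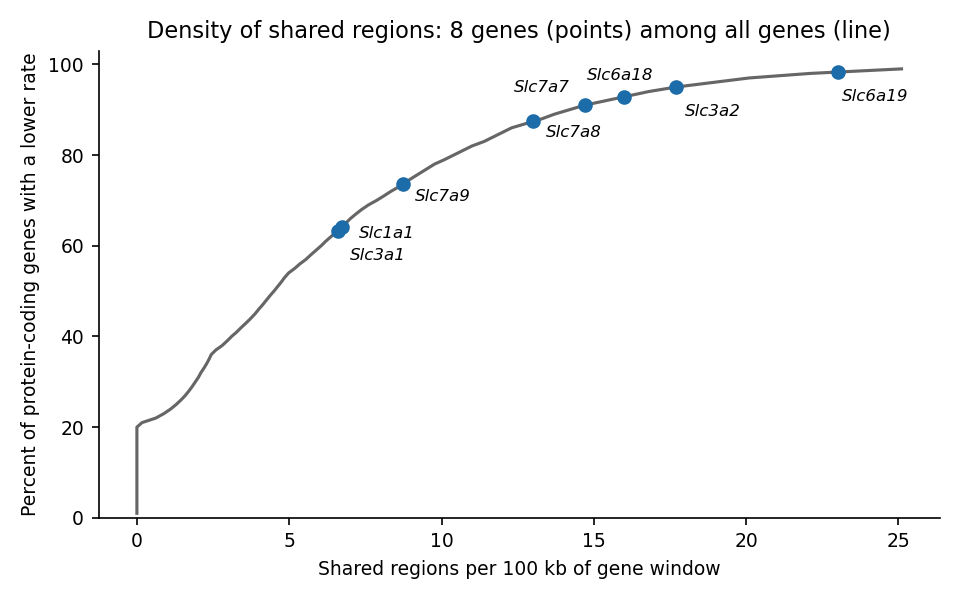
Shared regions per 100 kb of gene window (x axis) against the percent of protein-coding genes with a lower rate (y axis), for all genes (line) and the 8 amino acid carriers (points). All 8 points lie above the median rate of 4.50, between 6.59 for Slc3a1 and 23.0 for Slc6a19.

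The 2 libraries agreed on most of these sites. Peaks of replicate 1 without a partner numbered between 1 and 8 per window, highest at Slc1a1 with 8 and Slc7a9 with 6. Peaks of replicate 2 without a partner were found only at Slc7a7 and Slc3a2, with 1 each. The log2 ratio of heights, replicate 2 over replicate 1, had a median of -0.60 over the members' regions (quartiles -0.88 and -0.37) and of -0.61 over all shared regions (quartiles -0.90 and -0.33). It was above 0 at 3 of the 70 regions, against 7.60% of all shared regions. These 3 were the highest region of Slc6a19, one at an internal start of Slc3a2 and one in the flank downstream of Slc3a2.

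**Figure D2:**
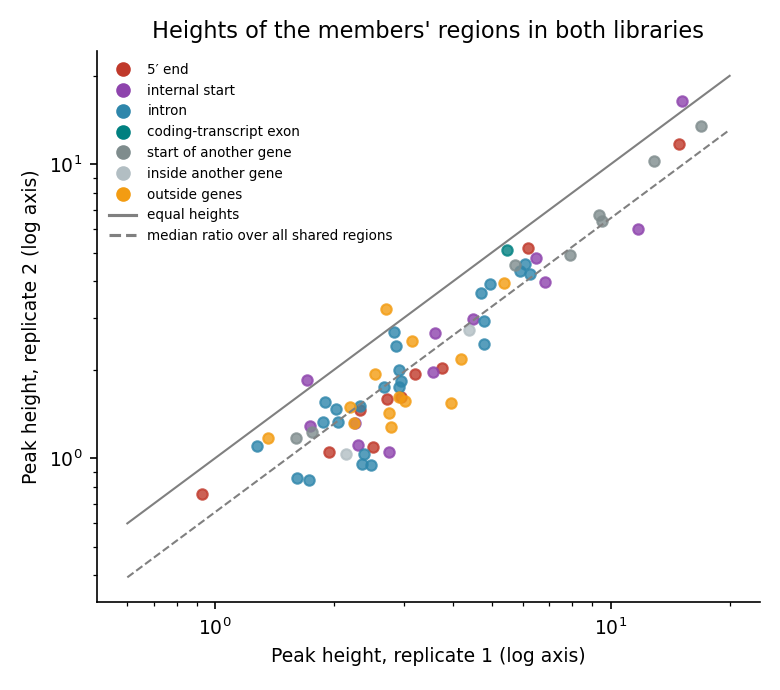
Height of each of the 70 shared regions in replicate 1 (x axis) and replicate 2 (y axis), both on log axes, coloured by place. The points follow the dashed line of the median ratio over all shared regions (log2 -0.61), and 3 points lie above the line of equal heights.

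A peak within 1 kb of the 5′ end was present in both libraries at 6 of the 8 genes (75.0%), against 55.9% of all protein-coding genes. The 2 exceptions, Slc6a19 and Slc7a7, had no such peak in either library in the smaller of the authors' peak sets, which is used throughout. Most of the members' 5′-end peaks were low. Slc3a2 reached 14.9 in replicate 1 and 11.7 in replicate 2, higher than 79.6% and 79.8% of the genes with a 5′-end peak. The next was Slc7a9 at 6.19 and 5.19, near the middle of the genes with a 5′-end peak. Slc7a8 (3.21 and 1.93), Slc6a18 (2.72 and 1.59), Slc3a1 (2.51 and 1.09) and Slc1a1 (2.32 and 1.46) came from the lower part of the range of those genes. The medians over the genes with a 5′-end peak were 7.28 and 5.34. The order from Slc3a2 through Slc7a9 and Slc7a8 to Slc6a18 was the same in both libraries, while Slc3a1 and Slc1a1 changed places.

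The tallest open site of most of these genes lay elsewhere. Within the gene and 1 kb before it, the highest shared region lay more than 1 kb from the 5′ end, in both libraries, at 6 of 8 members (75.0%), against 28.0% of the 14876 protein-coding genes with any shared region there. This measure was chosen after the values were seen. The exceptions were Slc7a9 and Slc3a2. In the wider list of amino acid carriers described below it held for 10 of 28 genes (35.7%).

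The annotated start matters for these counts. Only Slc6a19 and Slc7a7 lacked a 5′-end peak, and both have further starts with open chromatin inside the gene. With the start of the APPRIS principal transcript, the isoform the annotation ranks first, all 8 members had a peak in both libraries, against 57.6% of all genes. With RefSeq starts, where Slc6a18 kept its GENCODE start, the count was also 8, against 57.7%. The highest region then lay away from the start at 7 members by the principal transcript, with Slc3a2 added, against 25.1% of genes with a region. By RefSeq starts it did so at 6, against 24.8%, but Slc6a19 was no longer among them, since its tallest site lies at the RefSeq start, and Slc3a2 was. Slc7a7 counts here through starts inside the gene, since its principal and RefSeq starts fall both at the 5′ end and further in.

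**Figure D3:**
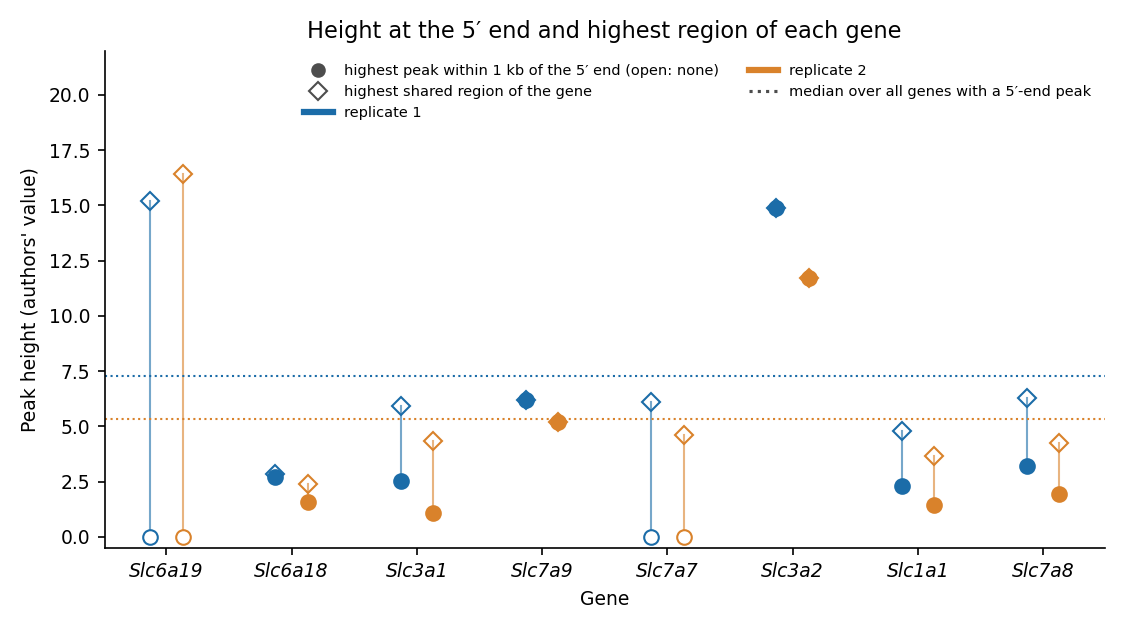
Peak height (y axis) at each gene (x axis) for replicate 1 (blue) and replicate 2 (orange): filled circles give the highest peak within 1 kb of the 5′ end, open circles its absence, diamonds the highest shared region of the gene, and dotted lines the medians of all genes with a 5′-end peak, 7.28 and 5.34. Circles and diamonds coincide at Slc7a9 and Slc3a2; the widest gap is at Slc6a19, where the diamonds stand at 15.2 and 16.4.

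Slc6a19, the main apical carrier of neutral amino acids, had the tallest site within any member gene. It stood at chr13:73692421-73692760 with heights of 15.2 in replicate 1 and 16.4 in replicate 2, above 97.8% and 98.3% of all peaks. The log2 ratio of replicate 2 over replicate 1 was 0.11, against the median of -0.61 over all shared regions. The region lies 12275 bp inside the gene record and covers the only RefSeq start of the gene, at position 73692636. GENCODE places 3 transcripts there, none of them coding. The 124 bases directly before this start, on the minus strand (chr13:73692637-73692760), are shown because they carry the tallest site, with bases inside footprints of both libraries in capitals, as in all sequences here.
Slc6a19 internal start: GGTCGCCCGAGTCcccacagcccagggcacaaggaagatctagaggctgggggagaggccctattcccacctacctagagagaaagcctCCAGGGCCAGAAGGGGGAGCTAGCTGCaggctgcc
Of these bases, 40 lay in footprints of both libraries. The longer protected stretch contains CCAGAAGGG, a match to the core CCANNAGGG of the motif of CTCF, a factor known for binding insulators. That motif was added after the sequence had been read. On either strand it matched 4 of the 70 member regions (5.71%), against 7.84% of all shared regions.

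The other starts of Slc6a19 were lower or had no peak. The principal coding transcript starts at 73700780, 4085 bp inside the gene record, and its region at chr13:73700661-73700900 had heights of 4.48 and 2.97. The gene record's own 5′ end, at 73704865, belongs to 1 non-coding transcript. No interval with a false discovery rate below 0.05 lay within 1 kb of it in either library, and the nearest peak was 3084 bp away in replicate 1 and 3101 bp in replicate 2. Around the gene, 5 regions lay upstream, at -18.5 kb to -4.83 kb from the 5′ end, of which chr13:73723161-73723540 was highest (5.37 and 3.95) and held 5 shared footprints. At the 3′ end of the gene a region over the exon at chr13:73680401-73680740 had 5.48 and 5.12.

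Slc6a18, the neighbouring carrier of small neutral amino acids, had a modest site at its start. Its 5′ end at 73678023 lay under the region chr13:73677901-73678240, with heights of 2.72 and 1.59. A site 2663 bp inside the gene was of like height, at 2.86 and 2.41. The higher site of 5.48 and 5.12 at the end of Slc6a19 lies 2547 bp upstream of the Slc6a18 start, between both genes' starts. The 217 bases before the start (chr13:73678024-73678240, minus strand) are shown because they hold the half-site GTTAAT of HNF1, a transcription factor known for its role in proximal tubule genes, here on the other strand as attaac.
Slc6a18 5′ end: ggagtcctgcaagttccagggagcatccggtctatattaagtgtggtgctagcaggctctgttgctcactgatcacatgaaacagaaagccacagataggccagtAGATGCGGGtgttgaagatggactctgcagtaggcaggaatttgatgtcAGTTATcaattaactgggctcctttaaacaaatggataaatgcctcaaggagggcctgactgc
Only 15 of these bases lay in footprints of both libraries. A footprint of each library touched the match, though none of its bases lay in footprints of both.

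Slc3a1, the heavy chain of the cystine carrier, was open inside the gene and hardly at its start. Its single transcript starts at 85028376, and the peak counted for it lay 910 bp away in replicate 1 and 863 bp in replicate 2, with heights of 2.51 and 1.09. Counting only peaks within 500 bp removed it in both libraries. Within 250 bp of the start the lowest false discovery rate was 0.00153 and 0.0105. In the wider peak set a peak covered the start, with heights of 1.93 and 0.907.

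An intronic group of 4 regions lay 12.7 kb to 16.3 kb inside Slc3a1. It comprised chr17:85041001-85041220 (4.95 and 3.93), chr17:85042481-85042800 (5.90 and 4.34), chr17:85043401-85043758 (2.91 and 1.99) and chr17:85044561-85044780 (4.78 and 2.93). In both libraries each of the 4 was higher than the site before the start. Below are the first of them and 300 bases of the highest (chr17:85042491-85042790), both on the plus strand.
Slc3a1 intron, first region: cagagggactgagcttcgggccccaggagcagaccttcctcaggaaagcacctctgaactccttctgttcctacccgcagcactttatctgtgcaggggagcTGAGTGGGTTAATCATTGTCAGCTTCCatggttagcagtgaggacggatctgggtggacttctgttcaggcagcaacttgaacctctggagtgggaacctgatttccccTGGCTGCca
Slc3a1 intron, highest region: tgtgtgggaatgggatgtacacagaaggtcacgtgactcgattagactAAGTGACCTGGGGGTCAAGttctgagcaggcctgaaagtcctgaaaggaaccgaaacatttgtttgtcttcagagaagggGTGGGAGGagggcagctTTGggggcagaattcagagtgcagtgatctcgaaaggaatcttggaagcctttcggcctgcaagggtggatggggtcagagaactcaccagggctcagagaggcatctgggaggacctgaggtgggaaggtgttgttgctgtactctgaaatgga
In the first, GTTAAT lies wholly inside a footprint of both libraries. In the highest, the E-box CACGTG lies outside the shared footprints. The 300-base window around the 5′ end of Slc3a1 held the HNF4 motif CAAAGTCCA, found in 0.419% of all such windows. It also held GTTAAT (6.53%), TATAAA (12.6%), the AP-1 motif TGANTCA (6.91%) and the CTCF core CCANNAGGG (5.87%). HNF4 is a nuclear receptor known for its role in kidney and liver epithelia. These matches are descriptions of the letters only.

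Slc7a9, the light chain that pairs with Slc3a1, had 3 of its 5 shared regions within 1 kb of its start. Its 5′ end is at 35448796. The highest region, chr7:35448461-35448720, ends 76 bp before it and had heights of 6.19 and 5.19, with 5 shared footprints. Just past it, chr7:35448981-35449180 had 3.75 and 2.02, and a weak site 870 bp before it had 0.928 and 0.754. Beyond 1 kb there were a site before the gene (2.20 and 1.49) and one in an intron (1.73 and 0.846). Replicate 1 had 6 further peaks in the window without a partner in replicate 2. The whole highest region is shown, since it carries the main signal of the gene.
Slc7a9 5′ end: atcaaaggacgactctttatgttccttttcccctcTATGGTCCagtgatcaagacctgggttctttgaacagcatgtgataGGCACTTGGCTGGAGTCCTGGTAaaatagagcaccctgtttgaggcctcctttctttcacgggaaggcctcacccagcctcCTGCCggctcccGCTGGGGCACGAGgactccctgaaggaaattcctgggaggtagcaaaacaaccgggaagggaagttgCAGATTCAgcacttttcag
Of its 260 bases, 57 lay in footprints of both libraries, the most of the sequences shown. None of the searched motifs matched it. The lowest false discovery rate of cutting near the start was 1.00e-113 in replicate 1 and 1.27e-62 in replicate 2.

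The heavy and light chain of the cystine carrier thus differed in the place of their tallest sites. Slc3a1 was highest 14264 bp inside the gene and Slc7a9 was highest 206 bp before its start, in both libraries. The heights of those tallest sites were close, 5.90 and 4.34 at Slc3a1 and 6.19 and 5.19 at Slc7a9.

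Slc7a7, the basolateral light chain for dibasic amino acids, had no peak within 1 kb of its 5′ end at 54417780. The nearest peak lay 3160 bp away in replicate 1 and 3180 bp in replicate 2. Cutting at the start was weak but not absent: the lowest false discovery rate within 1 kb was 0.0339 in replicate 1 and 6.17e-04 in replicate 2, and the wider peak set had peaks of 0.919 and 0.846 within 63 bp and 4 bp of it. Further in, 5 coding transcripts start between 54409460 and 54410621, about 7.2 kb to 8.3 kb inside the gene. The region there, chr14:54410181-54410460, had heights of 3.60 and 2.67. The 244 bases shown (chr14:54410217-54410460, minus strand) mark this start in place of the 5′ end, which had no peak in the smaller set.
Slc7a7 internal start: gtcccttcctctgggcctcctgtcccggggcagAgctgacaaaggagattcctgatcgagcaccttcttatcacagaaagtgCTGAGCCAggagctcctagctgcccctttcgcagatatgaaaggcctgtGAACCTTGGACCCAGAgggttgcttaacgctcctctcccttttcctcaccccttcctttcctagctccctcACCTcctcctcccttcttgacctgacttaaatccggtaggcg
A further start at 54414014 had a region of 3.56 and 1.97 within 1 kb.

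The highest site of Slc7a7 was intronic. It lay at chr14:54387561-54387880, 30060 bp inside the gene, with heights of 6.08 and 4.59. A broad region of 457 bp, chr14:54398964-54399420, had 2.83 and 2.68 and 5 shared footprints. The tallest peaks in the window belong to neighbours, the genes of mitochondrial proteins Mrpl52 (9.50 and 6.43) and Oxa1l (9.33 and 6.74). A lower peak lay at Mmp14, which encodes a matrix metalloprotease (1.76 and 1.23).

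Slc3a2, the shared heavy chain of the basolateral carriers, had the highest 5′-end peak of the 8 genes. The region chr19:8723261-8723500 covers the 5′ end at 8723369, with heights of 14.9 and 11.7 and 6 shared footprints, the most of any member region. It also lies within 1 kb of the starts of Snhg1, a host gene of small nucleolar RNAs, and of the genes Gm25855 and Gm25894. Its height thus cannot be assigned to Slc3a2 alone. The 105 bases before the Slc3a2 5′ end (chr19:8723370-8723474, minus strand) hold TATAAA, which a footprint of each library touched.
Slc3a2 5′ end: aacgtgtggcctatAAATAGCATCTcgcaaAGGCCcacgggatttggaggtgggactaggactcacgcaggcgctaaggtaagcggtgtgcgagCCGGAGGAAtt
The principal coding transcript of Slc3a2 and its RefSeq start lie further in. Between 8712985 and 8714433, 7 coding transcripts start, and 4 shared regions lay within 1 kb of them. The highest, chr19:8713321-8713500, had 11.7 and 6.04. Its neighbours chr19:8712921-8713120 and chr19:8713801-8713980 had 6.47 and 4.80, and 6.84 and 3.99. The last, chr19:8715101-8715300, was the lowest of the 4 (1.71 and 1.84). Slc3a2 was therefore open at its 5′ end and at the starts inside it, the nearest of which lies 8936 bp away. Upstream, a pair of regions near the starts of Stx5a, a syntaxin of the Golgi, and of 1700092M07Rik had 16.9 and 13.5, and 12.9 and 10.3. The first of these was the highest region of any window in replicate 1, as that of Slc6a19 was in replicate 2. Wdr74, needed for ribosome assembly, had 7.90 and 4.92.

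Slc7a8, the other light chain that pairs with Slc3a2, had sites at its start and a taller one deep inside. Its 5′ end at 54781946 lay under chr14:54781821-54782040 with heights of 2.96 and 1.61, and a second site 736 bp inside had 3.21 and 1.93. The highest region of the gene, chr14:54742401-54742720, lay 39386 bp inside, in an intron, at 6.26 and 4.25. The 94 bases before the start (chr14:54781947-54782040) and 300 bases of the intronic region (chr14:54742411-54742710) are set side by side, both on the minus strand.
Slc7a8 5′ end: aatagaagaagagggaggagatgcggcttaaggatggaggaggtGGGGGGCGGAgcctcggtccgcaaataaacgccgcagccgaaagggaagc
Slc7a8 intron: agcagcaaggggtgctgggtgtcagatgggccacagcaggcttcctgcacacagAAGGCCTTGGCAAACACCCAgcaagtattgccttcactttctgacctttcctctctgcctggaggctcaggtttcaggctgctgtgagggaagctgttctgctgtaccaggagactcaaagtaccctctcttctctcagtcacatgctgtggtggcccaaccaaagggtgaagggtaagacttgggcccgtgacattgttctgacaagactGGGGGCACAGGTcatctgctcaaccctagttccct
The start holds a GC box, GGGCGG, inside its only footprint found in both libraries, and the intronic region matched none of the searched motifs. The 94 bases held 7 CpG dinucleotides, and the 300 intronic bases held 1. The remaining 5 intronic sites of Slc7a8 were lower than its highest region, between 1.28 and 2.92 in replicate 1 and between 0.856 and 1.75 in replicate 2.

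Slc1a1, the apical carrier of glutamate and aspartate, had a site at its start and taller ones just downstream. The region over the 5′ end at 28835049, chr19:28834961-28835180, had 2.32 and 1.46. Within an intron of the coding transcript, chr19:28836241-28836460 had 4.78 and 2.44, and chr19:28836741-28836960 had 4.71 and 3.66. They lay 1301 bp and 1801 bp inside the gene, so the choice of a 2500 bp window moves them to the 5′ end. The 88 bases before the start are GC-rich and hold a GC box in a footprint of both libraries (chr19:28834961-28835048, plus strand).
Slc1a1 5′ end: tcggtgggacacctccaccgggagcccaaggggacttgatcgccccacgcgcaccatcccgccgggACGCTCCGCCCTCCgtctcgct
Their GC content was 72.7%. In the flank beyond the 3′ end, the start of 4430402I18Rik had a region of 5.72 and 4.56 at chr19:28929141-28929360. It holds 4 copies of GTTAAT spaced 19 bp apart, each overlapping the end of a match of CCANNAGGG, the pattern of a short tandem repeat.

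**Figure D4:**
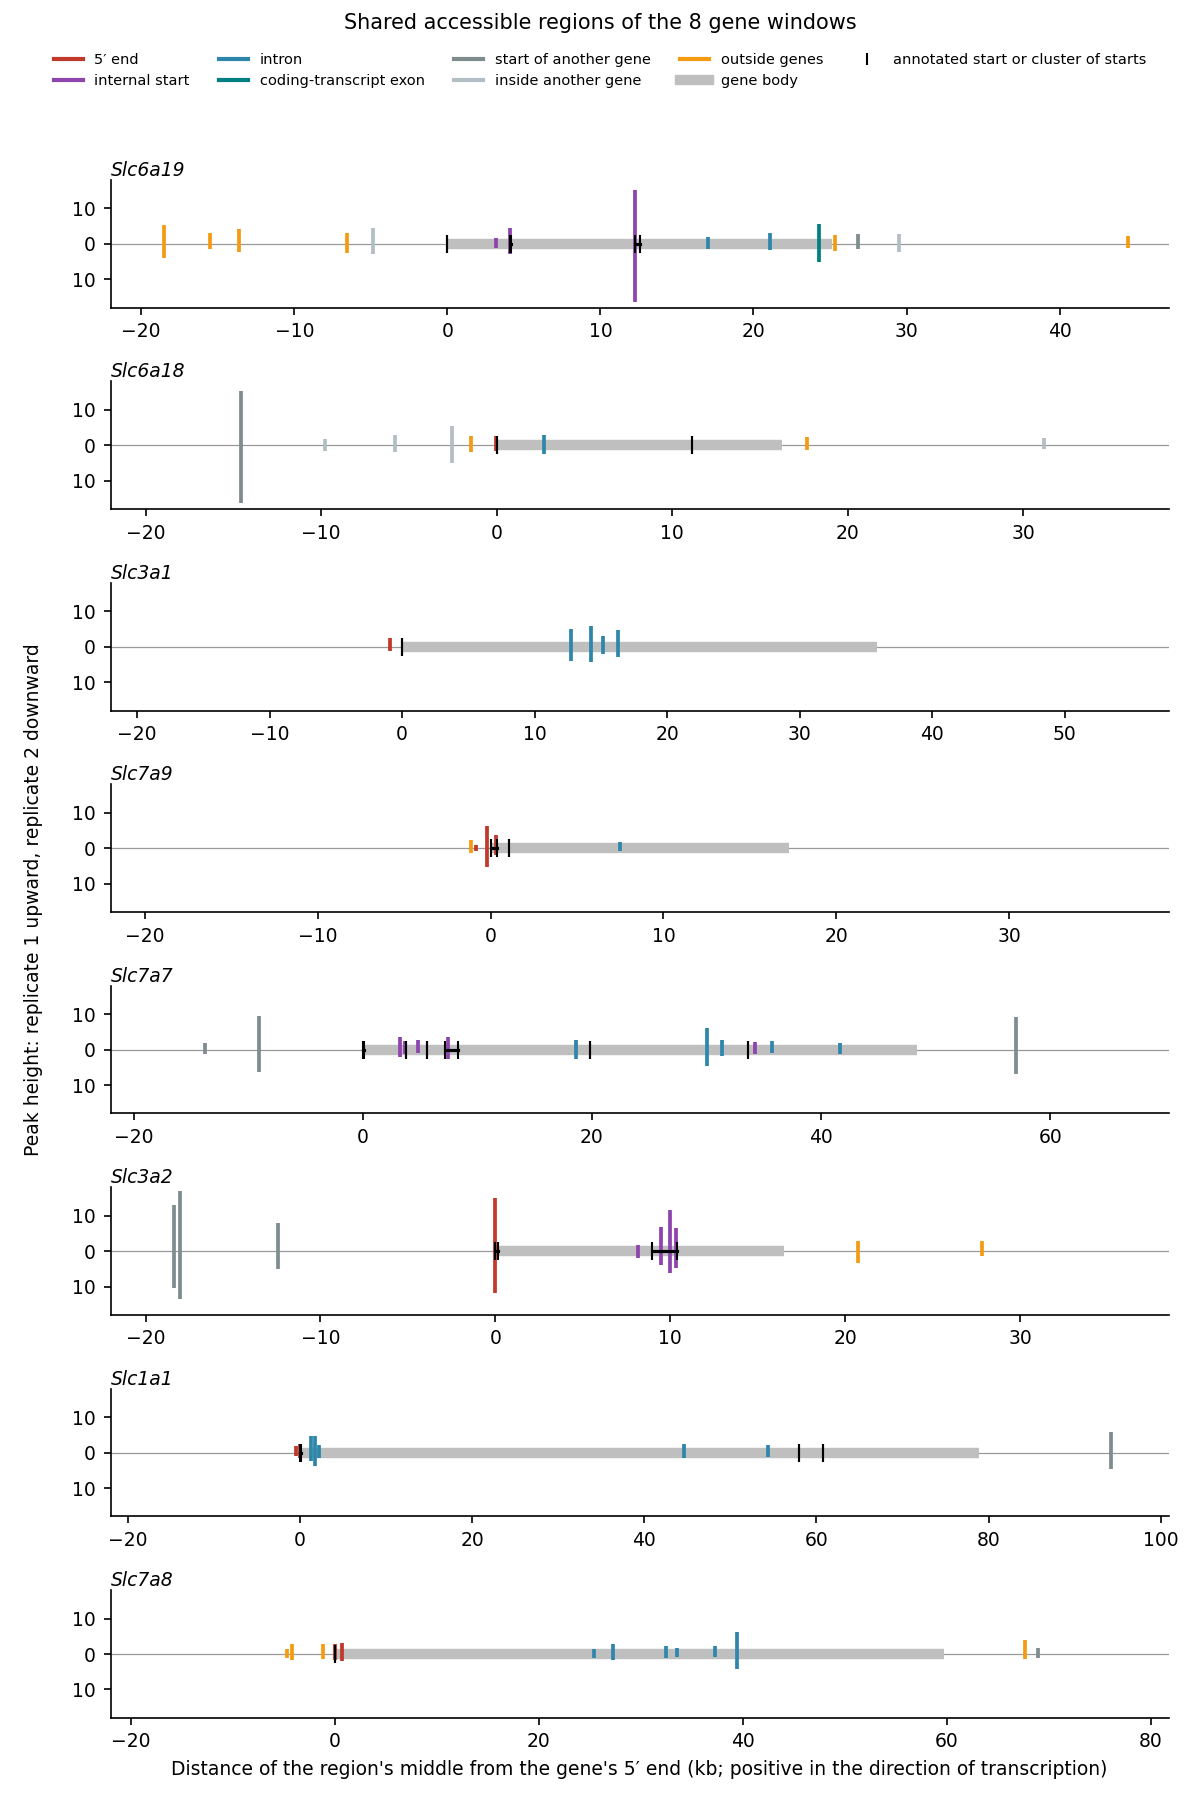
Shared regions of the 8 gene windows by distance of their middle from the gene's 5′ end (x axis, kb), with height in replicate 1 drawn upward and in replicate 2 downward (y axis), coloured by place. Grey bars are gene bodies and black ticks annotated starts; Slc7a9 has its tall site at 0, while those of Slc6a19, Slc3a1, Slc7a7 and Slc7a8 lie 12.3 kb, 14.3 kb, 30.1 kb and 39.4 kb inside.

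The CpG content of the gene start differed widely among the 8 genes. The CpG ratio, observed over expected within 1001 bp centred on the 5′ end, was 0.19 at Slc6a19, 0.12 at Slc6a18 and 0.26 at Slc7a9, in deciles 3, 2 and 3 of all genes, counted upward. It was 0.46 at Slc3a1, 0.55 at Slc7a7, 0.65 at Slc7a8, 0.78 at Slc1a1 and 0.97 at Slc3a2, in deciles 5, 5, 6, 8 and 10. Among genes with any shared region in the gene, the share with the highest one away from the 5′ end was 74.7% in decile 1 (292 genes with a region) and 12.2% in decile 10 (2113 genes). Over all genes of a decile, those without a region included, it was 9.94% in decile 1, highest in decile 4 at 30.5%, and 11.8% in decile 10. The fall from decile 1 on thus held only among genes with a region. From decile 4 to decile 10 the share fell by both counts. All 8 members had one. Among such genes the share was 69.2% in the decile of Slc6a19, 72.0% in that of Slc6a18, 33.9% in that of Slc3a1 and Slc7a7, 22.9% in that of Slc7a8 and 15.0% in that of Slc1a1. Slc7a9 and Slc3a2, with the highest region at the start, fell in deciles with shares of 69.2% and 12.2%. The part of CpG content in these patterns was not tested.

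**Figure D5:**
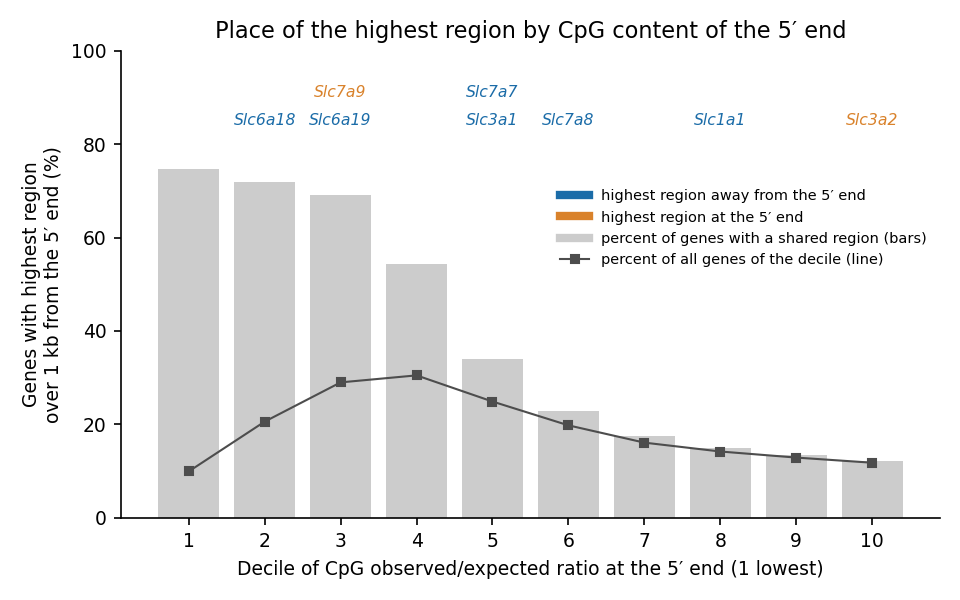
Percent of genes whose highest shared region lies over 1 kb from the 5′ end (y axis), by decile of the CpG observed over expected ratio at the 5′ end (x axis), out of genes with a shared region (bars) and out of all genes of the decile (line). Names mark the decile of each amino acid carrier, in blue where its highest region lies away from the 5′ end and in orange where it lies at it; the bars stand at 74.7% in decile 1 and at 12.2% in decile 10, and the line at 9.94% and 11.8%.

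At starts inside the gene, 3 of the 6 members with an annotated internal start had a shared region there: Slc6a19, Slc7a7 and Slc3a2. This compares with 24.8% of 12679 protein-coding genes with an internal start. At 2 of them, Slc6a19 and Slc7a7, the internal site was higher than any 5′-end peak in both libraries, against 12.4% of genes. The same 2 had no 5′-end peak of the smaller set in either library, against 6.03%. Any internal site of theirs therefore counted as higher, so the 2 counts are not separate results. In the wider set Slc7a7 had a 5′-end peak. Slc6a18 and Slc1a1 had no shared region within 1 kb of their internal starts. At Slc7a9 the internal start lies 1040 bp inside the gene, and the region near it (3.75 and 2.02) was counted for the 5′ end, which took precedence. None of the internal starts of these 3 genes gives rise to a coding transcript.

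Footprints followed the open regions. The windows held 152 footprints found in both libraries, 26.2 per 100 kb, against 4.57 per 100 kb over the genome. The latter includes sequence far from genes, and no footprint rate over the windows of all genes is given. Matching required overlap over 50% of the shorter footprint, and only 1 had the same start and end in both libraries. At least 1 shared footprint lay in 61 of the 70 regions (87.1%), against 77.9% of all shared regions, and 6 regions held 5 or more, against 4.67% of all. The half-site GTTAAT was found in 11 of the 70 regions (15.7%), against 7.88% of all shared regions, and in 7 of the 11 a footprint of each library touched it. In Slc6a19 it occurred in 5 regions of the window, in Slc7a7 in 2, in Slc3a1 in 2 and in Slc1a1 in 2. The full palindrome of the HNF1 motif matched none of the 70 regions. The GC box was in 9 regions (12.9%), against 24.9%, and the HNF4 motif in none, against 1.52%. The amino acid response element TGATGNAA, known for induction of carriers in amino acid shortage, was in 1 region (1.43%), against 2.09%.

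Significant cutting covered more of these windows than of the genome in both libraries. The genome includes sequence far from genes, and no share over the windows of all genes is given for comparison. Intervals with a rate of 0.001 or less took up 4.91% of the members' bases in replicate 1 and 3.53% in replicate 2, against 1.32% and 0.713% of the genome. Slc6a19 had the largest share, 9.47% and 6.83%. Slc3a1 in replicate 1 (1.92%) and Slc1a1 in replicate 2 (1.83%) had the smallest, both above the genome's.

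A wider list of 33 amino acid carriers and partner proteins gave the context. Of these, 20 had a 5′-end peak in both libraries, 2 in replicate 1 alone (Slc36a2 and Slc7a11) and 11 in neither. The 20 are 60.6% of the list, near the 55.9% of all protein-coding genes. The highest by rank was Slc43a2, an efflux carrier of large neutral amino acids, with 19.0 and 14.7. It was followed by Slc16a10, the basolateral carrier of aromatic amino acids (12.1 and 8.10), Slc7a5, a light chain of Slc3a2 (13.4 and 7.05), Slc1a4, an exchanger of alanine, serine and cysteine (11.2 and 8.02), and Slc1a5, a glutamine carrier (9.91 and 8.04). Slc1a5 also had an internal site of 5.50 and 5.13.

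Some partners of the 8 genes had no peak at their annotated starts. Cltrn, which encodes collectrin and is needed to bring Slc6a19 and Slc6a18 to the brush border, had no 5′-end peak in either library and 2 shared regions in its whole window. Slc7a13, another light chain of Slc3a1 in the late proximal tubule, had none either and 1 shared region. Others without a 5′-end peak were Slc43a1, Slc6a12, Slc7a3 and Slc38a1. Slc43a1 had a shared region at an internal start (1.59 and 1.14), as had Slc38a4 (1.59 and 0.520) and the peptide carrier Slc15a1 (1.39 and 0.947).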

How the data were processed

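DNase-seq of kidney was available as 2 libraries of 1 group. Per the deposited descriptions, all files of a library go back to its own filtered alignment on mm10. Not given in the sources used here were the aligner, the callers, their versions and the read totals. In the deposited peak files each peak has a signal value, called height here, whose scale is not stated. In the deposited FDR files each interval has a false discovery rate, an adjusted p-value below 0.05, and in the deposited footprint files every row has 0.01, so footprints are unscored. Of the 2 peak sets of each library the smaller was used, and the wider as an alternative.

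Genes and transcripts came from GENCODE M21 and sequences from the GRCm38.p6 genome, the same build as mm10, on 21 chromosomes. Differences between this reference and the alleles of the hybrid animals were not examined. RefSeq starts (GRCm38.p6) matched 7 of the 8 genes. Peaks were shared when overlapping by 1 base, footprints when overlapping over 50% of the shorter. A 5′-end peak was one overlapping the bases within 1 kb of the gene record's start; an internal start lay over 1 kb inside. Regions were placed by their middle, and exons are those of coding transcripts. Printed sequences leave out exons. Motifs were searched on both strands, with overlapping matches counted, in shared regions and in windows of 250 bases before to 50 after the 5′ end. All genes were used as background for counts. With 1 group no test between groups was possible and none was made. No interval could be given without read totals. The members and lists were chosen with earlier results of these data known. Named genes were all 8 members, the 5 highest of the wider list, the first 5 of it without a 5′-end peak, Slc7a13, Cltrn, neighbours whose start lies at a member's region, and the 5 highest regions away from the members' 5′ ends; further sites were named after their values were seen. Some genes counted in the lists are not reported here by name. Steps were tested on simulated intervals and sequences. Python 3.11.15 with numpy 2.4.6, pysam 0.24.0 and matplotlib 3.10.9 was used.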

Additional observations from a re-analysis of the deposited data

How the results depend on the processing

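No paired analysis was possible because the design has 1 group. The count of members with a 5′-end peak in both libraries was 6, and between 5 and 8 under windows of 500 and 2500 bp, the wider peak set (7), the higher 50% of peaks (5), the principal or RefSeq start (8 each) and either library alone (6 each). The count with a site at an internal start was 3 throughout, except 2 by the principal start. The highest region lay away from the 5′ end at 5 to 7 of the 8 members under all alternatives, with 5 at 2500 bp, where Slc1a1 was lost. The principal start added Slc3a2 (7), and RefSeq starts added Slc3a2 and dropped Slc6a19 (6), whose tallest site is then at the start. The 70 shared regions became 43 with no flank, and stayed within 1.5 times of 70 otherwise (48 with the higher 50% of peaks to 93 with flanks of 50 kb, and 73 to 97 in 1 library alone). The 152 shared footprints became 78 with no flank and 1 when start and end had to be identical, and 1 library alone held 244 to 334; fewer bases, a stricter match and an unmatched count are built into these settings. Per member, 57 of 72 counts of regions, 27 of 56 counts of footprints and 62 of 80 heights stayed within 1.5 times. The measure of the highest region with its alternatives, the RefSeq starts and the principal start for internal sites were added after the data were seen. Replicate 2 had the fewer peaks, so sites called in replicate 1 alone may lie below its limit of detection; read totals were not available to set that limit.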
